A study of Sus scrofa with 12 samples.

Results

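HSPA5, HSP90B1, ATF4 and XBP1 are 4 genes of the response to stress in the endoplasmic reticulum (ER), and their transcripts were followed in pig muscle over the first day after slaughter. They were taken as every probe set whose only gene symbol in the platform annotation is 1 of these names, which gave 6 probe sets for the 4 genes, out of 6765 genes and 23999 probe sets. HSPA5 and XBP1 had 1 probe set each, and HSP90B1 and ATF4 had 2 each, called brighter and dimmer here by their mean signal. The samples were portions of 3 to 5 g of the semimembranosus, a muscle of the hind leg, from the left legs of 3 female commercial hybrid pigs, each weighing about 160 kg. All came from 1 farm and 1 abattoir, and CO2 at 87% was used to stun them. Portions of that muscle were cut from every carcass 20 min, 2 h, 6 h and 24 h after death while it was chilled towards 4 °C. With 1 Affymetrix porcine array for each of the 12 portions, each time has 3 pigs and each pig serves as its own control. There was no living or unstunned muscle among the samples, and every comparison with 20 min uses the same 3 arrays.

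The ER is where secreted and membrane proteins are folded. When unfolded proteins build up there, sensors in its membrane start the unfolded protein response. IRE1 removes a short intron from the XBP1 mRNA, PERK phosphorylates the translation factor eIF2 and so allows ATF4 to be translated, and ATF6 is cut to release a transcription factor. These factors turn on chaperone genes, above all HSPA5, which encodes the Hsp70-type chaperone BiP, and HSP90B1, which encodes the Hsp90-type chaperone GRP94. Muscle fibres hold a specialised ER, the sarcoplasmic reticulum, which stores calcium. An array reads mRNA abundance, so it shows neither the translation of ATF4 nor, without the probe sequences, the splicing of XBP1.

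The values are log2 intensities after RMA, an Affymetrix method that gives all arrays nearly the same distribution, so each level is relative to the rest of the transcripts on its array. Array medians lay between 5.89 and 5.94 and the highest values between 14.79 and 14.89. Across probe sets, r was 0.986 to 0.997 for any pair of arrays. The 20 min array of pig 3 had the lowest mean correlation with the others (0.989, against 0.992 to 0.993 for the other 11). Of 14 markers of skeletal muscle fibres, 10 had a probe set with 1 symbol. Their mean log2 level stayed between 14.07 and 14.11 in all arrays, near the top of the signal range. The steady mean thus does not show that fibre content was steady. Of 9 fibroblast markers 7 had such a probe set, with means of 7.94 to 8.24 at 24 h and 8.03 to 8.71 at 20 min. Of 11 macrophage and leukocyte markers 9 had one, with means of 5.96 to 6.47 at 24 h and 6.43 to 7.09 at 20 min. Plasma and B cells are cells in which XBP1 is known to be high. Of 11 symbols listed for their markers, 4 had one, with means of 5.45 to 5.46 at 24 h and 5.15 to 5.43 at 20 min. In bulk tissue, fewer cells of a type and less RNA per cell cannot be told apart.

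None of the 6 probe sets changed past the threshold at any time, a limma adjusted p under 0.05 over all 23999 probe sets tested. The share of all probe sets that passed was 0% at 2 h and 0% at 6 h against 20 min, 0.00417% at 24 h against 20 min (1 probe set), 0% at 6 h against 2 h and 0% at 24 h against 6 h. Over all 4 times the F test passed 0.00417%, again 1 probe set. The smallest adjusted p among the 6 was 0.579 at 2 h, 0.521 at 6 h and 0.217 at 24 h, each against 20 min, and the first 2 of these belong to the dimmer ATF4 set. The 95% intervals of the 6 changes lay within 1.52-fold either way at 2 h, within 1.39-fold at 6 h and within 1.44-fold at 24 h. The F test over the 4 times gave limma adjusted p = 0.567 and 0.798 for the dimmer and brighter ATF4 sets, 0.573 for XBP1, 0.880 for HSPA5 and 0.971 and 0.870 for the dimmer and brighter HSP90B1 sets.

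**Figure D1:**
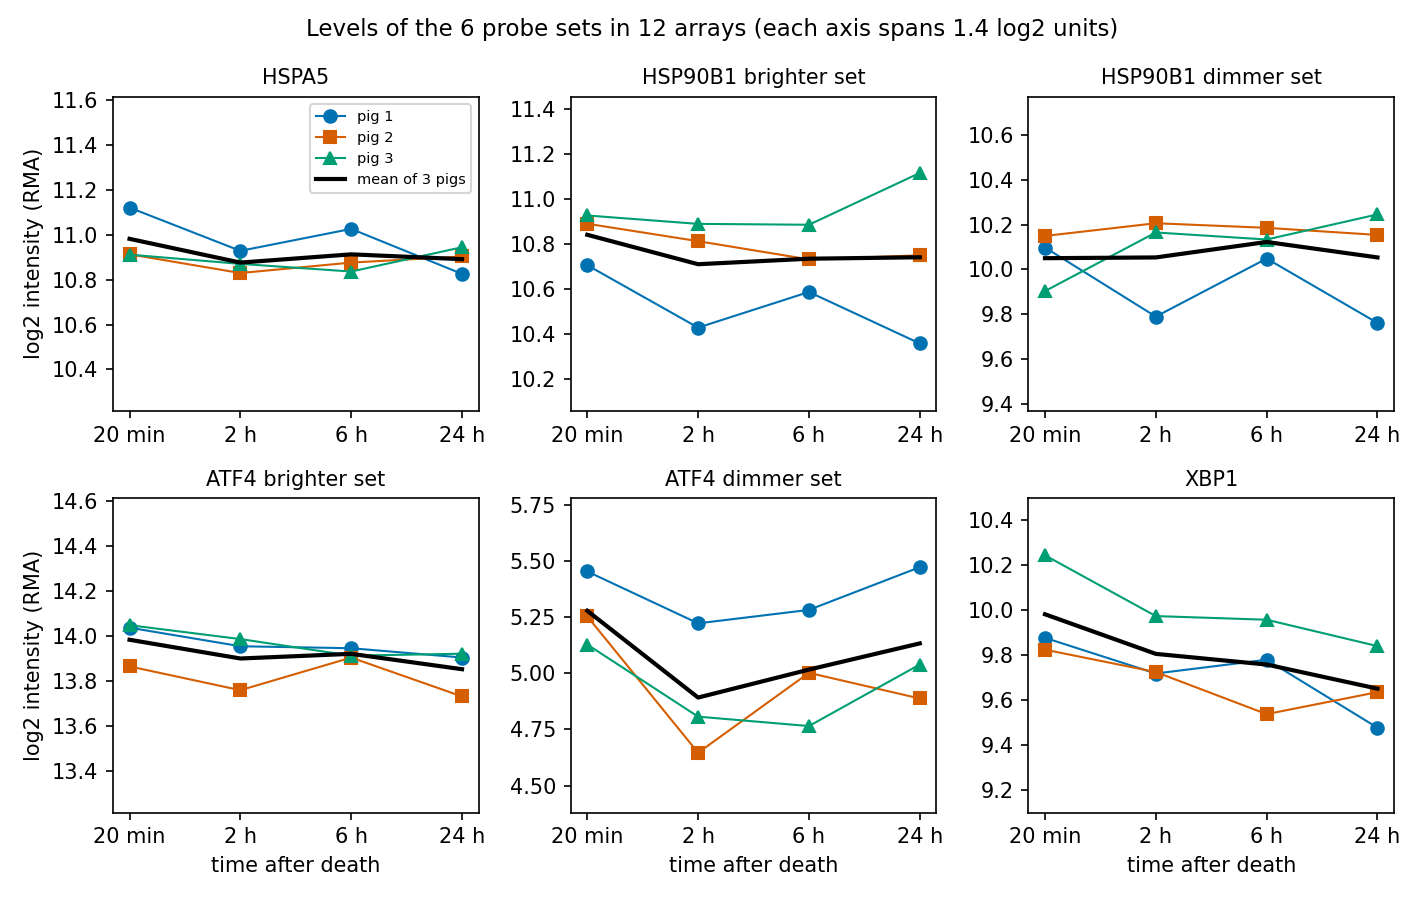
Log2 intensity of each of the 6 probe sets (vertical axis, 1.4 log2 units in every panel) at 20 min, 2 h, 6 h and 24 h after death (horizontal axis), with 1 coloured line for each of the 3 pigs and a black line for their mean. XBP1 is lower at 24 h than at 20 min in all 3 pigs, the brighter ATF4 set likewise, and the HSP90B1 lines of pig 1 and pig 3 part by 24 h.

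XBP1, the transcription factor gene whose mRNA is spliced by IRE1, had the largest difference of the 4 genes at 24 h. Its log2 intensities in pigs 1, 2 and 3 were 9.88, 9.82 and 10.24 at 20 min, 9.72, 9.72 and 9.97 at 2 h, 9.78, 9.54 and 9.96 at 6 h and 9.48, 9.63 and 9.84 at 24 h. Pig 3 had the highest level at every time, and the groups overlap because the 24 h value of pig 3 lies just above the 20 min value of pig 2. Within each pig the 24 h value was the lower one in 3 of 3. The mean was 9.65 ± 0.18 at 24 h and 9.98 ± 0.23 at 20 min (SD, n = 3 each). The log2 change was -0.33 ± 0.12 (SD over 3 pigs, SE 0.088), which is 1.26-fold lower with a 95% interval of 1.10-fold to 1.44-fold lower. That change did not pass when all probe sets were counted (limma adjusted p = 0.217).

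The XBP1 mean was lower at each later time than at the one before. Against 20 min its log2 change was -0.18 ± 0.087 at 2 h and -0.22 ± 0.11 at 6 h (SD over 3 pigs), lower in 3 of 3 pigs both times, with limma adjusted p = 0.642 and 0.530. Between neighbouring times the steps were -0.047 ± 0.13 for 6 h against 2 h and -0.11 ± 0.20 for 24 h against 6 h, and pigs moved in both directions in each of these steps. Pig 1 was 0.061 higher at 6 h than at 2 h, and pig 2 was 0.098 higher at 24 h than at 6 h. At unadjusted p under 0.05, XBP1 was lower at 24 h, as was 6.67% of all probe sets, and lower at 6 h, as was 4.54%. Without the 20 min array of pig 3 or under any other alternative its 24 h change lay between -0.40 and -0.29. Its range over the 4 time means, 0.33, was about the same as its range over the 3 pig means, 0.32.

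ATF4 encodes the transcription factor of the PERK arm, and it had 2 probe sets. The brighter one, near the top of every array's signal range, read 14.04, 13.87 and 14.05 at 20 min in pigs 1, 2 and 3, 13.95, 13.76 and 13.99 at 2 h, 13.95, 13.90 and 13.91 at 6 h and 13.90, 13.73 and 13.92 at 24 h. Pig 2 was the lowest at each of the 4 times, and the values at 24 h and 20 min overlap. At 24 h the brighter set was lower by almost the same amount in each pig, with log2 changes of -0.13, -0.13 and -0.13 and an SD of 0.0037. The moderated SE of limma, which borrows spread from all probe sets and all times, was 0.076, and the change did not pass (adjusted p = 0.475). At 2 h it was lower in 3 of 3 pigs, with a mean change of -0.083 ± 0.022, and at 6 h in 2 of 3, with -0.063 ± 0.091, pig 2 being 0.039 higher.

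The dimmer ATF4 set lay below the array median in every array, and its signal over background is not given in the deposited values. Whether it measures ATF4 mRNA was not checked against sequence, so its values stand for the probe set as annotated. It read 5.45, 5.25 and 5.13 at 20 min in pigs 1, 2 and 3, 5.22, 4.65 and 4.81 at 2 h, 5.28, 5.00 and 4.77 at 6 h and 5.47, 4.89 and 5.04 at 24 h. The lowest mean came at 2 h, and at 24 h pig 1 was at its 20 min level while pigs 2 and 3 were below theirs. Its log2 change was -0.39 ± 0.20 at 2 h, -0.26 ± 0.096 at 6 h and -0.15 ± 0.20 at 24 h (SD over 3 pigs). It was lower in 3 of 3 pigs at 2 h and 6 h and in 2 of 3 at 24 h, and none of these passed (limma adjusted p = 0.579, 0.521 and 0.545). At unadjusted p under 0.05 it was lower at 2 h, as was 3.94% of all probe sets, and lower at 6 h. The brighter set had its lowest mean at 24 h instead. After removal of each pig's mean the 2 ATF4 sets correlated with r = 0.53 over the 12 arrays, which come from 3 pigs.

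HSPA5, the ER Hsp70 chaperone whose transcript is widely used as a sign of ER stress, did not pass at any time. It read 11.12, 10.91 and 10.91 at 20 min in pigs 1, 2 and 3, 10.93, 10.83 and 10.87 at 2 h, 11.03, 10.88 and 10.84 at 6 h and 10.83, 10.90 and 10.94 at 24 h. Pig 1 was the highest at the first 3 times and the lowest at 24 h, and the groups overlap. Pigs 1, 2 and 3 had log2 changes of -0.30, -0.0098 and 0.033 at 24 h, with a mean of -0.091 ± 0.18 (limma adjusted p = 0.662). Its 95% interval ran from 1.21-fold lower to 1.07-fold higher. At 2 h HSPA5 was lower in 3 of 3 pigs, with a mean change of -0.11 ± 0.078, and at 6 h in 3 of 3, with -0.069 ± 0.029, with adjusted p = 0.748 and 0.830. Without pig 1 the change at 24 h was 0.012.

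HSP90B1, the ER Hsp90 chaperone, differed more between pigs than between times. The brighter set read 10.71, 10.89 and 10.93 at 20 min in pigs 1, 2 and 3, 10.43, 10.81 and 10.89 at 2 h, 10.59, 10.73 and 10.89 at 6 h and 10.36, 10.75 and 11.12 at 24 h. Pig 1 was the lowest and pig 3 the highest at every time, and the gap between them was widest at 24 h. Its pig means spanned 0.44 log2 units and its time means 0.13. At 24 h its log2 changes in pigs 1, 2 and 3 were -0.35, -0.14 and 0.19, with a mean of -0.10 ± 0.27 (limma adjusted p = 0.692). At 2 h and 6 h the brighter set was lower in 3 of 3 pigs, with mean changes of -0.13 ± 0.13 and -0.11 ± 0.060, with adjusted p = 0.741 and 0.771.

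The dimmer HSP90B1 set, annotated to the same RefSeq transcript, read 10.10, 10.15 and 9.90 at 20 min in pigs 1, 2 and 3, 9.79, 10.21 and 10.16 at 2 h, 10.05, 10.19 and 10.13 at 6 h and 9.76, 10.15 and 10.25 at 24 h. It also had pig 1 lower (-0.34) and pig 3 higher (0.34) at 24 h, and pig 2 at 0.0046, so that its mean change was 0.0034 ± 0.34 (adjusted p = 0.992). At 2 h and 6 h its mean changes were 0.0033 ± 0.29 and 0.072 ± 0.14, while those of the brighter set were below 0. Without the 20 min array of pig 3, where this set had its lowest 20 min value, the dimmer set was at -0.12 at 2 h, -0.053 at 6 h and -0.12 at 24 h, and the brighter set at -0.17 at 24 h. Its pig means spanned 0.25 and its time means 0.072. The 2 sets correlated with r = 0.71 over the 12 arrays once each pig's mean was removed.

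**Figure D2:**
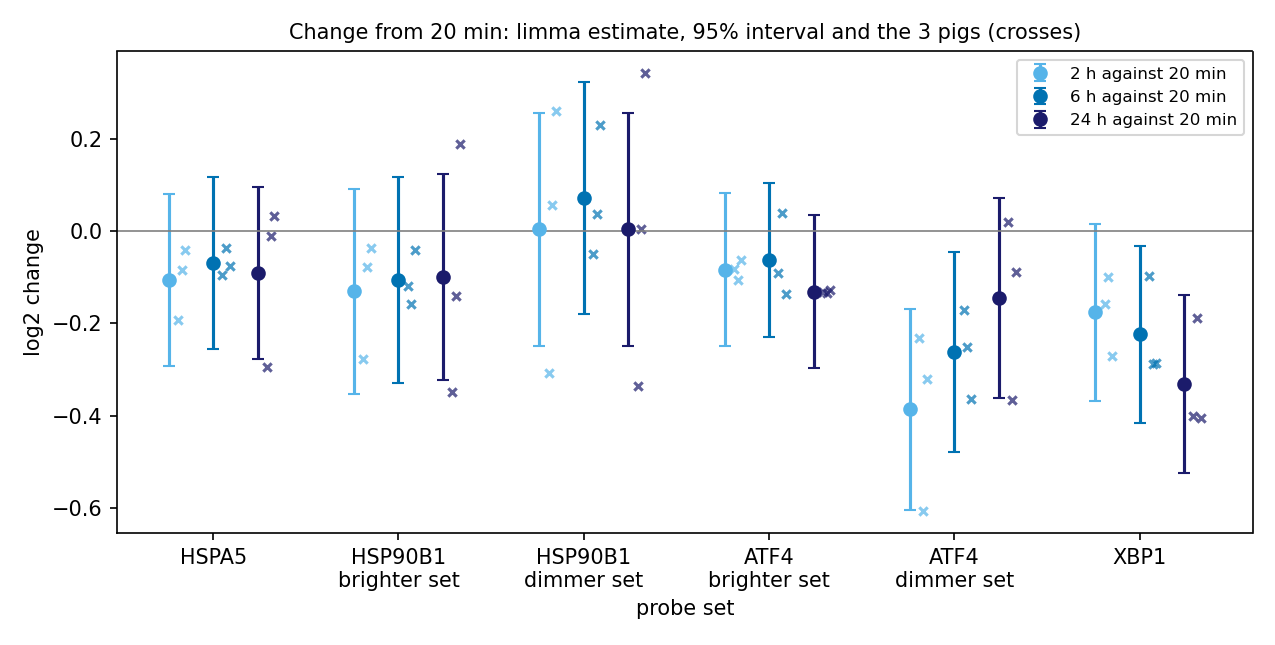
Log2 change from 20 min (vertical axis) of the 6 probe sets at 2 h, 6 h and 24 h, as limma's estimate (dot) with its 95% interval (bar) and the changes of the 3 pigs (crosses). The 3 changes of the brighter ATF4 set at 24 h coincide at -0.13, those of the dimmer HSP90B1 set run from -0.34 to 0.34, and the XBP1 interval at 24 h ends at -0.14.

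Counted together, 5 of the 6 probe sets had a lower mean at 2 h, at 6 h and at 24 h than at 20 min, the dimmer HSP90B1 set being the exception each time and the dimmer ATF4 set, whose identity was not checked, 1 of the 5. The median change of the 6 was -0.12 at 2 h, -0.088 at 6 h and -0.12 at 24 h, beside medians over all probe sets of -0.00017, -0.0065 and 0.0082. At 2 h, 5 of the 6 were lower in 3 of 3 pigs, while 14% of all probe sets were. At 6 h 4 of the 6 were, against 16.6%, and at 24 h 2 of the 6 (XBP1 and the brighter ATF4 set), against 16.7%. In none of the 6 did every 24 h value lie below every 20 min value, which was so for 4.72% of all probe sets. The groups did not part in the other direction for any of the 6 either, and the share of all probe sets was not counted there. The 6 probe sets stand for 4 genes and share the same 20 min arrays, so these counts are not independent. Between 2 h and 6 h, 5 of the 6 had a slightly higher mean, by at most 0.12, and between 6 h and 24 h the changes lay between -0.11 (XBP1) and 0.12 (the dimmer ATF4 set), with limma adjusted p of at least 0.800.

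The highest correlation between the 4 genes was that of the 2 chaperones. After removal of each pig's mean, HSPA5 correlated with the brighter HSP90B1 set at r = 0.86 and with the dimmer one at 0.62 over the 12 arrays. XBP1 correlated with HSPA5 at 0.56, with the brighter ATF4 set at 0.52 and with the brighter HSP90B1 set at 0.42. With the dimmer sets its r was lower, at -0.016 for HSP90B1 and 0.18 for ATF4. The brighter ATF4 set had r = 0.24 with the brighter HSP90B1 set and -0.026 with the dimmer one. These values describe 12 arrays from 3 pigs, share their normalisation and carry no test.

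Other transcripts with the most similar course were sought by the same pig-centred correlation over the 12 arrays. For the brighter HSP90B1 set they were SDF2L1, which encodes an ER protein of the BiP complex (r = 0.95), NME6 (0.91) and ERP44, which encodes a thioredoxin-type protein that retains clients in the early secretory pathway (0.89). For HSPA5 they were SCIN (0.94), whose level of 3.23 is near the bottom of the signal range, SDF2L1 (0.87) and HSP90B1 itself (0.86). For XBP1 they were UCHL3 (0.96), the hexosamine pathway enzyme gene GFPT1 (0.95) and the transcription factor gene MYC (0.94). Like XBP1 these 3 had lower means at 24 h, with changes of -0.21, -0.42 and -0.97, with adjusted p of 0.305, 0.193 and 0.193 in limma. For the brighter ATF4 set they were NDFIP1 (0.91), PCYOX1 (0.90) and the ribosomal protein gene RPL11 (0.89), with changes at 24 h of -0.086, -0.26 and -0.13. Being the highest among all probe sets with 1 symbol, these correlations are high by selection, and no more is read from them. SDF2L1 and GFPT1 had mean log2 levels of 5.51 and 4.72, below the array medians.

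Chaperones and folding enzymes of the ER were described beside the 4 genes, each gene at its brightest probe set. From 37 symbols listed, 25 genes had a probe set with 1 symbol, HSPA5 and HSP90B1 among them, and 0 passed at any time. At 24 h, 17 had a lower and 8 a higher mean, with a median log2 change of -0.055, beside -0.011 over all 6765 genes, of which 3573 had a lower and 3192 a higher mean. At unadjusted p under 0.05, 3 were lower and 0 higher at 24 h, while 8.71% of all genes were lower and 6.28% higher. The 3 were FKBP14 (-0.25 ± 0.13), a prolyl isomerase, PDIA6 (-0.20 ± 0.19), a disulphide isomerase, and MANF (-0.24 ± 0.29), a secreted protein induced by ER stress. FKBP14 had a mean log2 level of 5.04, below the array medians. ERP29, the BiP cochaperone gene DNAJB9 and TXNDC12 followed by p, at -0.18 ± 0.11, -0.23 ± 0.060 and -0.17 ± 0.10, each lower in 3 of 3 pigs. None of these passed (limma adjusted p = 0.357 for PDIA6 and 0.389 for DNAJB9). Of the 25 genes, 5 were lower and 3 higher in 3 of 3 pigs at 24 h, beside 1426 and 1103 of all 6765 genes. The excess of lower means rests on pig 1. With it left out, 13 had a lower and 12 a higher mean and the median was -0.00086. At unadjusted p under 0.05, 0 of the 25 were then lower, beside 6.74% of all genes. The median was -0.080 with pig 2 left out, -0.093 with pig 3 left out and -0.090 with just the 20 min array of pig 3 left out.

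At 2 h the same list had 15 lower and 10 higher means (median -0.045), with 2 lower and 1 higher at unadjusted p under 0.05, beside 4.26% and 4.02% of all genes. The lower ones were FKBP14 (-0.21 ± 0.11) and DNAJB9 (-0.24 ± 0.17), and the higher one was SERPINH1 (0.25 ± 0.084), the collagen chaperone. At 6 h 13 were lower and 12 higher (median -0.0070), with 1 lower and 2 higher at that level, beside 3.99% and 4.82% of all genes. These were FKBP14 (-0.25 ± 0.15), SERPINH1 (0.21 ± 0.045) and CANX (0.24 ± 0.12), the lectin chaperone calnexin. SERPINH1 and CANX were named after their values were seen; none of these changes passed over all probe sets.

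At 24 h most genes of all 5 lists described here, the chaperones among them, had lower values in pig 1. In that pig, 20 of the 25 were lower, with a median of -0.16, while 58.2% of all genes were lower with a median of -0.036. The other lists had 12 of 15 sensors and regulators, 16 of 17 ATF4 targets, 9 of 13 genes of ER-associated degradation and 22 of 28 genes of translocation lower in pig 1. In pig 3 these lists, in the same order, had 13, 7, 7 and 21 genes lower, and in pig 2 they had 9, 9, 7 and 17. Lower values were thus not limited to pig 1 for the sensors and regulators and for translocation. Of the 25 chaperones, 11 were lower in pig 2 (median 0.020) and 12 in pig 3 (median 0.0045). Of all genes, 47.3% were lower in pig 2 and 51.1% in pig 3. Lower in pig 1 and higher in pig 3 were 10 of the 25 chaperones, or 40%, and 10 of the 17 ATF4 targets, or 58.8%, while 25.6% of all genes were. Opposite values in pigs 1 and 3 were thus also found among the ATF4 targets. The share was 6.67% for the sensors and regulators, 23.1% for ER-associated degradation and 14.3% for translocation. The 10 chaperones were HSPA5, HSP90B1, HYOU1, CANX, ERP44, PDIA4, PRKCSH, SDF2L1, MANF and FKBP2, named after their values were seen. HYOU1, a large Hsp70-related chaperone of the ER, had log2 changes of -0.35, 0.083 and 0.32 in pigs 1, 2 and 3, and SDF2L1 had -0.28, -0.094 and 0.092. The difference between pigs has 1 array per pig and time and was not tested.

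RNA integrity was read from control probe sets at both ends of a transcript, as the log2 gap of 3′ over 5′ signal. At 20 min this gap in pigs 1, 2 and 3 was 2.37, 2.23 and 2.33 for actin. It was 0.48, 0.63 and 0.23 for EF1A and -0.23, -0.22 and -0.20 for GAPDH. Between 24 h and 20 min the gap of 3′ over 5′ signal changed in pigs 1, 2 and 3 by 0.38, -0.010 and 0.47 for EF1A, by 0.061, 0.0098 and 0.039 for GAPDH and by 0.094, -0.23 and -0.044 for actin. The mean of the fibroblast markers changed by 0.094, -0.085 and -0.51, that of the macrophage and leukocyte markers by -0.29, -0.045 and -1.13 and that of the plasma and B cell markers by 0.016, 0.11 and 0.30. The adipocyte markers, 3 of 5, changed by -0.12, -0.12 and -0.85, and none of the markers of these 4 cell types passed at 24 h. Single markers went both ways. Their mean changes ran from -1.63 (C1QC) to 0.22 (CD14) for macrophages and leukocytes and from -0.99 (ADIPOQ) to 0.27 (LEP) for adipocytes. For XBP1 the changes in these pigs were -0.40, -0.19 and -0.40. At 24 h pig 2 had the smallest changes of XBP1, EF1A and GAPDH and, in size, the largest change of actin. At 2 h the changes in pig 2 were -0.10 for XBP1, 0.49 for EF1A, 0.036 for GAPDH and 0.31 for actin. At 6 h they were -0.29, -0.038, -0.085 and -0.20 in the same order. The part of RNA quality and of other cell types in any of these values was not tested. Of the plasma and B cell markers, CD79B and TNFRSF17 had mean log2 levels of 3.93 and 4.12, below the array medians, and SDC1 and JCHAIN were at 6.60 and 6.88.

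**Figure D3:**
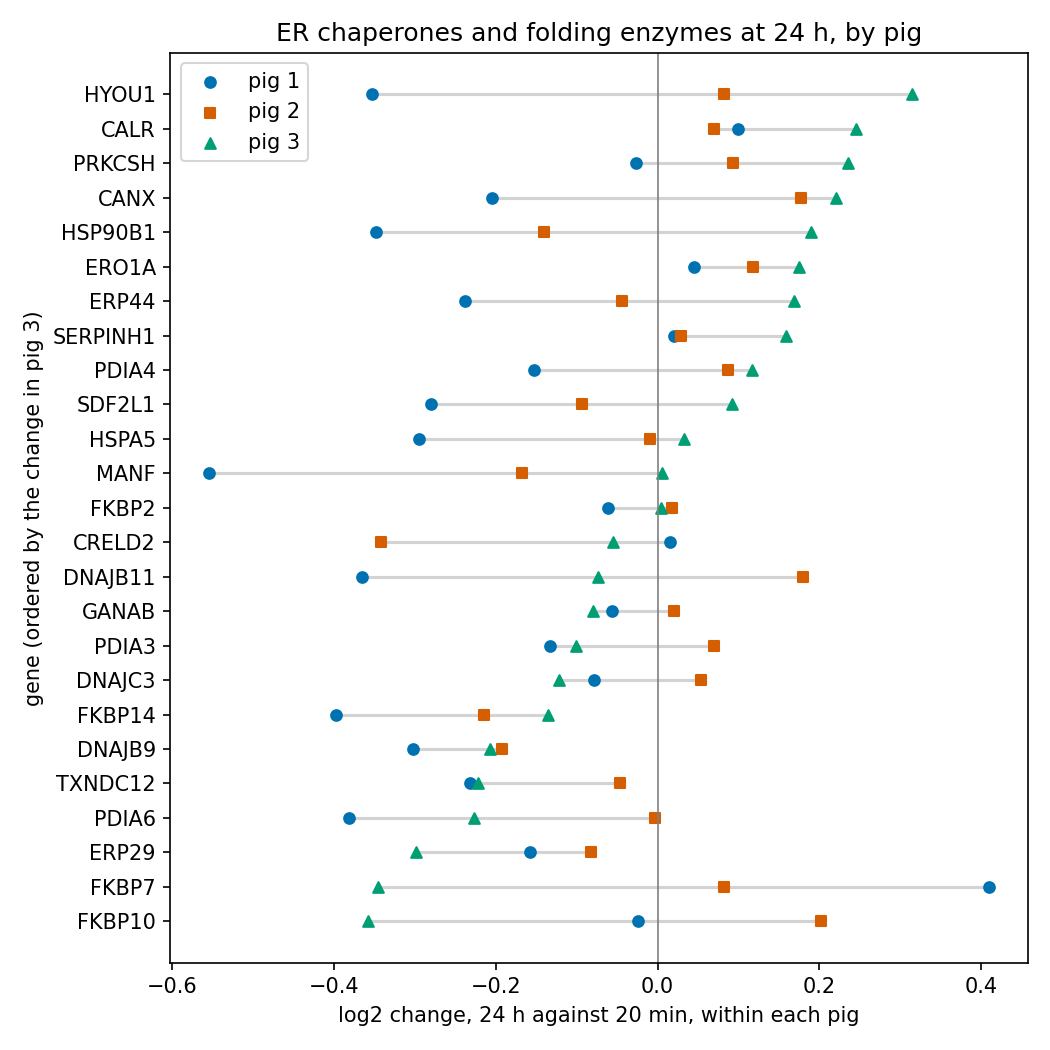
Log2 change at 24 h against 20 min (horizontal axis) of 25 ER chaperone and folding enzyme genes (vertical axis, ordered by pig 3), with 1 symbol for each of the 3 pigs and a grey line over their range. Pig 1 lies below 0 for 20 of the 25 genes and pig 3 for 12, and HSPA5 and HSP90B1 are among the 10 genes below 0 in pig 1 and above 0 in pig 3.

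Sensors and regulators of the unfolded protein and integrated stress responses gave 15 genes of 28 symbols, ATF4 and XBP1 included, and 0 passed at any time. The sensor genes EIF2AK3, ERN1 and ATF6 were not among the probe sets with a single symbol and are not analysed here. At 24 h, 12 of the 15 had a lower and 3 a higher mean (median -0.14), while 52.8% of all genes had a lower mean. At unadjusted p under 0.05, 3 of the 15 were lower and 0 higher, beside 8.71% and 6.28% of all genes. With pigs 1, 2 and 3 left out in turn, 1, 4 and 2 of the 15 were lower at that level, beside 6.74%, 7.58% and 4.01% of all genes. The 3 were XBP1, EIF2S1 (-0.24 ± 0.14), which encodes the alpha subunit of eIF2, and the transcription factor gene CEBPB (-0.26 ± 0.24). BCAP31, ATF5 and CREB3L2 followed, at -0.16 ± 0.071, 0.19 ± 0.11 and -0.18 ± 0.19. DDIT3, which encodes the stress-induced factor CHOP, was at -0.18 ± 0.11, lower in 3 of 3 pigs (limma adjusted p = 0.491). Of the 15 genes, 8 were lower and 1 higher in 3 of 3 pigs at 24 h, beside 1426 and 1103 of all 6765 genes. At 2 h, 11 were lower and 4 higher (median -0.068), and at 6 h, 10 and 5 (median -0.054). The eIF2 kinase gene EIF2AK2, which is known as an interferon-induced gene, was at 0.28 ± 0.30 and 0.31 ± 0.036 at these times and did not pass; it was named after its values were seen.

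Genes known as targets of ATF4 in amino acid supply and stress were split between lower and higher means. From 32 symbols, 17 genes had a probe set with 1 symbol. Of these, 8 had a lower and 9 a higher mean at 24 h (median 0.028), and 0 passed. With pigs 1, 2 and 3 left out in turn, 7, 10 and 13 had a lower mean and the median was 0.063, -0.028 and -0.054, and with just the 20 min array of pig 3 left out it was -0.015. At unadjusted p under 0.05, 2 of 17 were lower and 0 higher at 24 h, beside 8.71% and 6.28% of all genes. With pig 3 left out 1 was lower, beside 4.01% of all genes. ATF3 had the lowest value of all 5 lists, with -2.59, -0.71 and -1.78 in pigs 1, 2 and 3 and a mean of -1.69 ± 0.94 (limma adjusted p = 0.193). ATF3 is also an immediate early gene that stimuli other than ER stress induce. The asparagine synthetase gene ASNS, a direct ATF4 target, was lower in 3 of 3 pigs, with a mean change of -0.34 ± 0.21 (adjusted p = 0.311). Of the 17 genes, 5 were lower and 0 higher in 3 of 3 pigs at 24 h, beside 1426 and 1103 of all 6765 genes. VLDLR, CTH, PSAT1 and the aminoacyl-tRNA synthetase gene NARS followed, at -0.18 ± 0.14, -0.17 ± 0.064, -0.20 ± 0.49 and 0.097 ± 0.21. At 2 h, 10 were lower and 7 higher (median -0.017), and at 6 h, 8 and 9 (median 0.0066).

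ER-associated degradation, which returns misfolded proteins to the cytosol, gave 13 genes of 31 symbols, 0 of which passed at any time. At 24 h, 7 had a lower and 6 a higher mean (median -0.097), while 52.8% of all genes had a lower mean. The median became -0.060, -0.045 and -0.031 with pigs 1, 2 and 3 left out in turn. SELENOS, a selenoprotein of the ER membrane, was the 1 gene of 13 lower at unadjusted p under 0.05 (-0.25 ± 0.17), a share near the 8.71% of all genes. It became 0, 2 and 1 genes with pigs 1, 2 and 3 left out in turn, beside 6.74%, 7.58% and 4.01% of all genes. FAF2, EDEM2, HERPUD2, UFD1 and the lectin gene ERLEC1 followed, at 0.15 ± 0.031, -0.19 ± 0.18, -0.13 ± 0.041, -0.14 ± 0.20 and -0.11 ± 0.14. ERLEC1 had its lowest mean at 2 h, with a change of -0.30 ± 0.10 (limma adjusted p = 0.579).

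Genes of translocation into the ER, signal sequence cleavage and N-glycan transfer gave 28 genes of 32 symbols, and 0 passed at any time. Lower means were seen for 21 of the 28 at 2 h, 6 h and 24 h alike, with medians of -0.062, -0.077 and -0.11, while 52.5%, 51.3% and 52.8% of all genes had lower means. SEC61B, a subunit of the translocation channel, had 24 h changes of -0.23, -0.38 and -0.58 in pigs 1, 2 and 3 and a mean of -0.40 ± 0.18 (limma adjusted p = 0.193). STT3A, a catalytic subunit of the oligosaccharyltransferase, was at -0.36 ± 0.21, SSR4 at -0.23 ± 0.15 and SEC61A1, the channel's pore subunit, at -0.18 ± 0.078. These 4 of 28 were lower and 0 higher at unadjusted p under 0.05 at 24 h, beside 8.71% and 6.28% of all genes. The 4 became 2, 4 and 3 with pigs 1, 2 and 3 left out in turn, while the share of all genes lower became 6.74%, 7.58% and 4.01%. With just the 20 min array of pig 3 left out, the 4 became 2, beside 346 of all 6765 genes. SEC11A and OSTC followed, at -0.22 ± 0.24 and -0.18 ± 0.019.

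**Figure D4:**
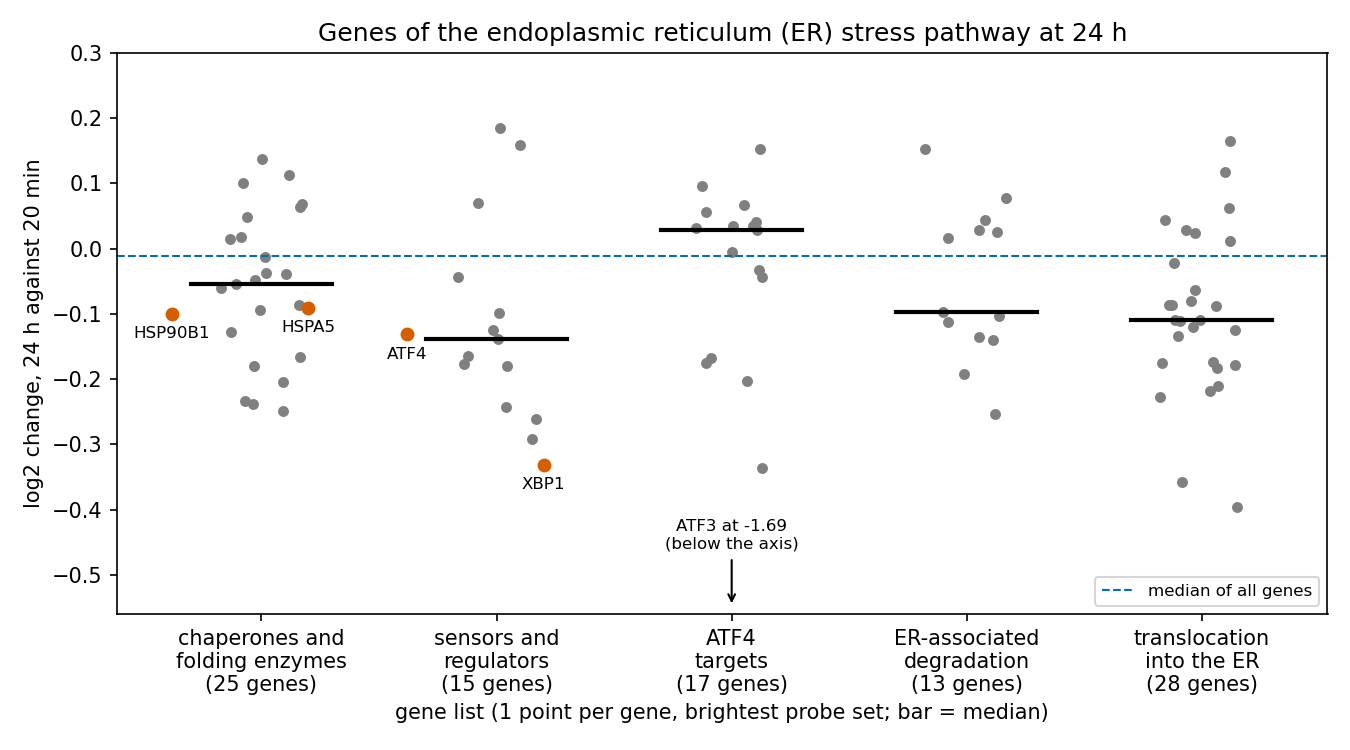
Log2 change at 24 h against 20 min (vertical axis) of every gene in 5 lists of the ER stress pathway (horizontal axis, 1 point per gene at its brightest probe set), with the list median as a bar, the 4 described genes in orange and the median of all 6765 genes, -0.011, as a dashed line. ATF3, at -1.69, lies below the axis, and the median of the sensors and regulators is -0.14.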

How the data were processed

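Per the labels' protocols, biotin-labelled cRNA from total RNA was put on the arrays. The authors deposited log2 intensities from RMA (affy package, per the submitters' processing notes), with no version stated there. RMA corrects background, quantile-normalises and summarises each probe set. No coordinates or sequences were used, and precision depends on the number of arrays.

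Of 24123 probe sets, 124 controls were dropped and 23999 tested without a filter. The 2016 platform annotation gives 10069 of these 1 symbol, 198 several and 13732 none here, and 9961 matched a Sscrofa11.1 RefSeq gene.

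The tests were made in limma 3.58.1 (R 4.3.3, statmod 1.5.0), on 12 arrays, with time and a fixed pig block in the model, as 1 muscle of each pig was sampled 4 times per the design text. Deviations from the time means had r of 0.409 to 0.656 in the 18 same-pig pairs. Residual and prior degrees of freedom were 6 and 5.67. Two-sided p-values were Benjamini-Hochberg adjusted within a comparison (threshold 0.05), and the 95% intervals are per probe set, not adjusted. The p-values rest on how far the course over the 4 times differs among the 3 pigs, and on the prior from all probe sets. Level differences between pigs are taken out by the block. The fit was tested on simulated data.

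The 4 genes and all gene lists were chosen with earlier results of these data known. Named from each list are up to 6 genes with the smallest p at 24 h, plus DDIT3; any other is marked. Genes of similar course are the 3 with the highest pig-centred correlation. The alternatives were no block, a random block, leaving out dim probe sets, cyclic loess, centring by bright probe sets, a trended and robust prior, each pig left out, and, added after seeing the data, leaving out the 20 min array of pig 3 and, for the gene lists, each pig.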

Additional observations from a re-analysis of the deposited data

How the results depend on the processing

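None of the 6 probe sets passed in any of the alternatives, and 168 of 177 changes from 20 min kept their direction. Part of the 168 was fixed in advance. Changing the block, leaving out dim probe sets and the trended and robust prior leave each estimate as it was. The dimmer ATF4 set falls out without the dimmest 40%. The 9 that reversed were all of the chaperones. With 1 pig left out, HSPA5 at 24 h lay between -0.153 and 0.0116 (without pig 1) and the brighter HSP90B1 set between -0.245 and 0.0243 (without pig 1). The dimmer HSP90B1 set lay between -0.126 (without pig 3) and 0.159 at 2 h, with -0.0233 when pig 2 was left out, between -0.00654 (without pig 3) and 0.133 at 6 h and between -0.166 (without pig 3) and 0.173 at 24 h. When the pig 3 array at 20 min was dropped, it was at -0.122, -0.0533 and -0.122 at these times. The cause was not tested. The adjusted p of XBP1 at 24 h ranged from 0.152 (trended and robust prior) to 0.805 (no replicate block). With both sets of a gene averaged, the 2 h, 6 h and 24 h changes of ATF4 were -0.235, -0.162 and -0.138 and the 6 h change of HSP90B1 was -0.0171. The dimmer ATF4 set, whose match to ATF4 mRNA was not checked, contributes most to the 2 h and 6 h values.

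Over all probe sets, the count past the threshold at 24 h against 20 min was 1, and 0 without the replicate block and with pig as a random block. It was between 0 and 2 with 1 pig left out and 2 when the pig 3 array at 20 min was dropped. At 24 h against 6 h it was 0, between 0 and 1 with 1 pig left out and 9 without that array. Over the 4 times it was 1, and 0 without the replicate block, with the random block, without the dimmest 40% and with cyclic loess, between 0 and 1 with 1 pig left out and 3 without that array. At unadjusted p under 0.05 the 24 h count was 3138, and 1394 without the replicate block. Of the scalings, centring by the brightest 10% of probe sets moved the median change of all probe sets most, by 0.033 at 24 h.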
